A study of Mus musculus with 11 samples.

Results

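Distal P53 peaks are the peaks called with the P53 antibody in wild-type (WT) mouse embryoid bodies that lie away from the ends of protein-coding genes. They were taken from the first of the 2 WT P53 peak lists as every peak on chromosomes 1 to 19, X and Y more than 5000 bases from both ends of every protein-coding gene span of mm10. This gave 314 of the 396 peaks of that list, and the 11 lists of the series together held 19707 peaks on these chromosomes. The other 82 peaks of the list are called near-gene peaks here. The rule used position among called peaks of list 1, so list 1 signal was selected on, and H3K4me3 is tied to gene ends. A WT H3K4me3 peak lay within 10 kb of 88 of the 314 distal peaks (28%) and of 49 of the 82 near-gene peaks (59.8%).

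P53 is a transcription factor that binds DNA as a tetramer, at a site made of a pair of decamers, short motifs set side by side, and activates genes of cell cycle arrest, apoptosis, DNA repair and its own feedback control. Many of its sites lie in enhancers and introns far from a start, which makes the gene that a given site serves hard to name from position alone. In stem cells it is also known for a role in leaving pluripotency. H3K4me3, trimethylated lysine 4 of histone H3, marks active promoters, and WDR5 is a core subunit of the complexes that write it.

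The cells were embryonic stem cells of the Rx:GFP KI background, which carry GFP in the Rx locus, grown as embryoid bodies with the SFEBq method in GMEM with 5% KSR and collected at day 2. All groups shared the removal of doxycycline at day 0 and the addition of 2% matrigel at day 1. What doxycycline controlled, and whether a genotype was 1 clone, is not given in the sources used here. CUT&RUN, which releases and sequences the DNA next to an antibody target, used 2 µg of antibody for 2 M (mega) cells. P53 and WDR5 were profiled in WT and in the Wdr5 and p53 double knockout (DKO), with 2 lists each, and H3K4me3 in WT, DKO and the Wdr5 knockout (KO), with 1 list each. The DKO cells lack Wdr5 as well as p53, so the loss of either cannot be told apart in them.

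The P53 lists rested on 26.4 M and 23.9 M fragments in WT and on 32.8 M and 57.5 M in DKO, and held 396 and 294 peaks in WT and 99 and 179 in DKO. The H3K4me3 lists held 9836 peaks in WT, 918 in KO and 6418 in DKO. Of 7 markers of pluripotent cells, 6 carried WT H3K4me3 at an end (1 kb), among them Pou5f1 and Sox2. So did 3 of 8 anterior neural markers (Otx2, Six6 and Zic2, but not the reporter locus Rax), 1 of 7 mesoderm and endoderm markers, 2 of 4 trophoblast markers and 1 of 3 feeder markers, against 35.5% of all 21887 protein-coding genes, a share that the anterior neural count does not stand apart from. The nearest P53 peak to Trp53 was 6308456 bases away in WT list 1, and no P53 value here checks the deletion. List 2 of WT P53 was called on a merged alignment per its header, and 193 of the 314 distal peaks had their summit on the same base in it. The labels call the lists of a pair rep1 and rep2, but whether they are separate libraries was not settled. The pair was therefore counted as 1 library, and differences between genotypes have no replicate check.

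RefSeq sequence was at hand for the stretch before and after annotated gene starts, 250 and 50 bases, and 3 of the 314 distal peaks overlapped such a window, against 5 of the 82 near-gene peaks. The first is shown because it carries a p53 site. It is the start of the noncoding gene Gm51651 on the plus strand, chr1:155056274-155056573 of GRCm38.p6, inside the P53 peak 39616 bases from Ier5. Capitals mark the site.

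Gm51651 start: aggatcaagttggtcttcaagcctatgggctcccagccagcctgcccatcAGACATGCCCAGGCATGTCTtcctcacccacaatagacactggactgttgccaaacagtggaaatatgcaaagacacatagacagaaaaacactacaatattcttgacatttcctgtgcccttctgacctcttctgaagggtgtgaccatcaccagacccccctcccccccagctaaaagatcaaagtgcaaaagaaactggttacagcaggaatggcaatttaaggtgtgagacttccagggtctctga

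The match is 2 adjacent copies of the p53 decamer consensus, a motif of 10 bases that reads the same on both strands, at positions 155056324 to 155056333 and 155056334 to 155056343. It ends 185 bases from the summit of the peak. A decamer was found in 8.36% of the 32851 RefSeq start windows, and a pair without a spacer, which contains them, in 3 (0.00913%). The other 2 windows, of Sptbn4 and D730003K21Rik, lay 735805 and 1826434 bases from the nearest peak of WT list 1. Sites with a spacer were not searched. The match is a description of letters and does not show which bases P53 contacted.

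The second is shown as the contrast. It is the plus strand from chr2:75768581-75768694, the part of the start window of the noncoding gene Gm34657 that lies inside a stronger peak, 63281 bases from Nfe2l2, and it holds no decamer.

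Gm34657 start, part in the peak: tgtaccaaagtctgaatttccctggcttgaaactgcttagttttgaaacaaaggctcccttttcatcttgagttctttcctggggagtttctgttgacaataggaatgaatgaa

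This stretch begins 252 bases from that peak's summit, so the centre of the peak was not searched. The third window, in Ccdc30, held no decamer either, in a peak with a fold enrichment of 4.78 in list 1 and no call in list 2. Fold enrichment is the authors' ratio of the fragments over a summit to those in the surroundings in that library. It is used to describe and rank peaks within a list, and values of several lists are set side by side without a test.

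Most distal P53 peaks were not called in the cells without p53, and few of these overlapped a WT H3K4me3 peak. The minority that was called in DKO mostly overlapped one, and mostly overlapped WDR5 peaks too. A peak of either DKO P53 list overlapped 63 of the 314 distal peaks (20.1%, Wilson 95% interval 16 to 24.8), against 21.5% of all 396 peaks of the list. DKO list 2 alone held all 63, and list 1 held 49. The remaining 251 peaks, called not in DKO below, were missing from lists that were both deeper than WT list 1. Of the 314, 232 (73.9%, 68.8 to 78.4) were called again in WT list 2, against 72.7% of all 396, and 178 were in both WT lists and in neither DKO list. Intervals cover counting error only.

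A WT H3K4me3 peak overlapped 66 of the 314 distal peaks (21.0%, 16.9 to 25.9), against 22.2% of all 396. It overlapped 53 of the 63 peaks called in DKO (84.1%, 73.2 to 91.1) and 13 of the 251 peaks not in DKO (5.18%, 3.05 to 8.66). The odds ratio was 97.0 (40.4 to 233, two-sided Fisher's exact test, adjusted p = 1.30e-36 over 4 tests), a comparison of peaks within these libraries and not of genotypes. Of the 63 peaks, 35 lay within 10 kb of another distal peak, so they are not independent and the interval is too narrow. Among the 63, 58 overlapped a WDR5 or H3K4me3 peak of some list, and 28 were called in every list whatever the antibody. For such peaks the H3K4me3 mark and a region called with any antibody cannot be told apart by this test. Peaks not in DKO lay a median of 69928 bases from the nearest WT H3K4me3 peak, and 102 of them (40.6%) lay over 100 kb away, against 1 of the 63.

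**Figure D1:**
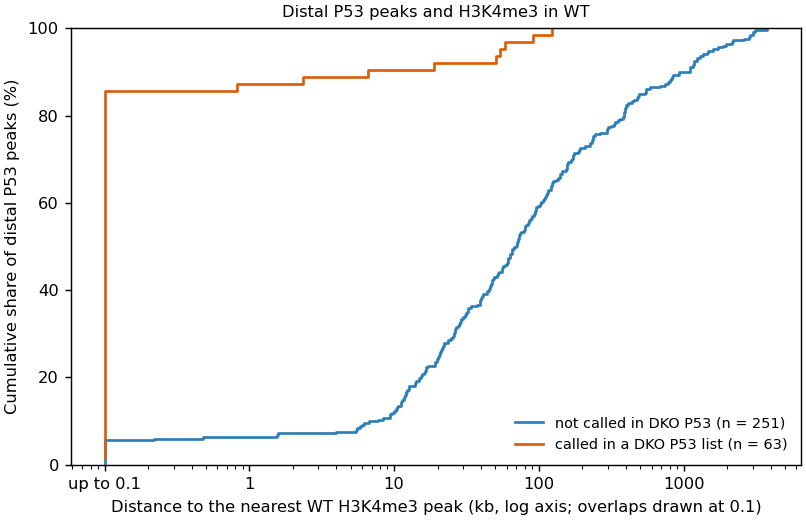
Cumulative share of distal P53 peaks (percent) against the distance to the nearest WT H3K4me3 peak (kb, log axis), for the 251 peaks not called in DKO and the 63 called there, with overlaps drawn at 0.1 kb. The line of the 63 starts near 84.1% and that of the 251 near 5.18%, with a median of 69928 bases.

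Distal and near-gene peaks did not differ beyond counting error in either respect. The odds ratio of a call in DKO was 0.685 (0.391 to 1.20, two-sided Fisher's exact test, adjusted p = 0.395), and that of overlap with WT H3K4me3 was 0.726 (0.415 to 1.27, two-sided Fisher's exact test, adjusted p = 0.395). These intervals leave room for a lower, an equal or a higher share in distal peaks. The second ratio was above 1 when list 2 took the place of list 1 (1.21) or in the top 50% of each list (1.31).

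Calls for the other antibodies were also more frequent at the peaks called in DKO. Of the 314, 73 overlapped a WDR5 or H3K4me3 peak of any list, against 25.5% of all 396. These were 58 of the 63 peaks called in DKO and 15 of the 251 not in DKO. A block of 28 of the 314 peaks (8.92%) was called in all other 10 lists, whatever the antibody or genotype. So were 8 of the 82 near-gene peaks (9.76%). All 28 were among the 63, since the 10 lists include the DKO P53 lists. At the other end, 166 peaks were in both WT P53 lists and no other list, and 70 were in WT list 1 alone.

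**Figure D2:**
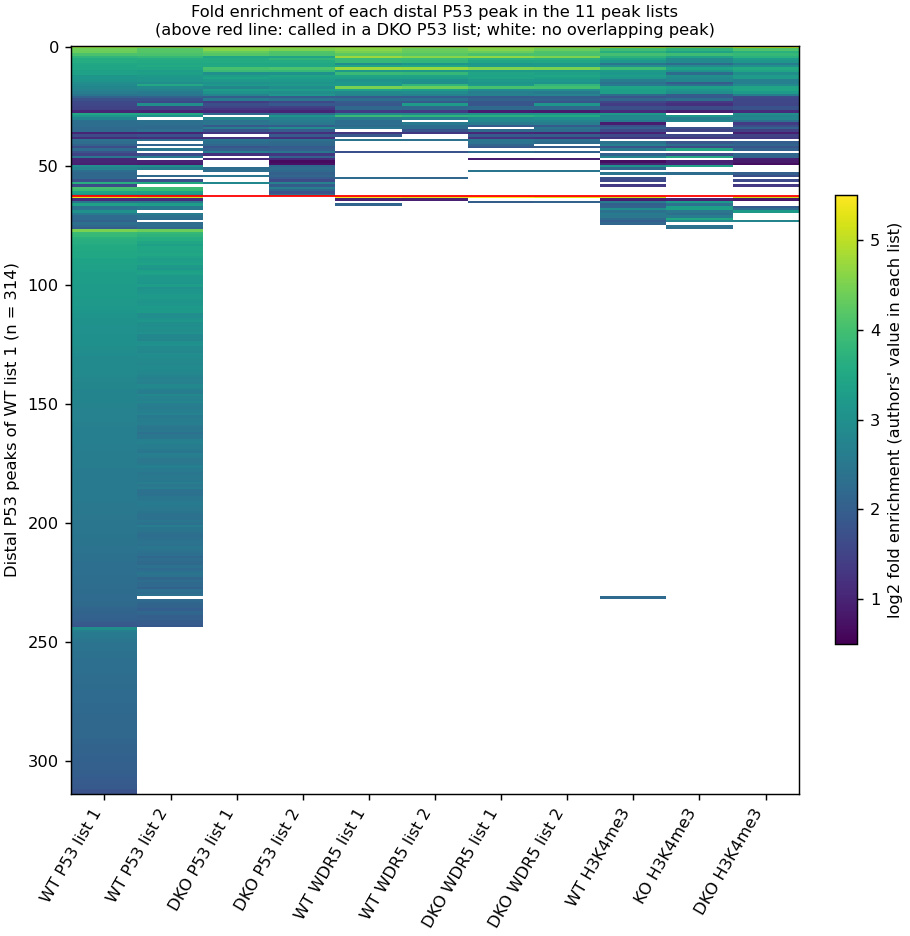
Fold enrichment (log2, colour) of the 314 distal P53 peaks (one line each) in the 11 peak lists, with white where no peak overlapped and the highest value shown where several did. The 63 peaks above the red line are called in a DKO P53 list and fill most columns at the top, and below it 15 of 251 peaks have colour outside the WT P53 columns.

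From a fold enrichment of 4 upward, the share that list 2 repeated was higher in each higher class up to 100%. It was 16 of 28 below 4, above the next class, with 33 of 82 from 4 to 5, and 51 of 68 from 5 to 6. It was 60 of 63 from 6 to 8, 35 of 36 from 8 to 10, and 37 of 37 at 10 and over. The 82 peaks that list 2 did not repeat had a median of 4.60 in list 1, against 6.29 for the 232 that it did. Calls in DKO were most frequent at both ends, 17 of 28 below 4 and 17 of 37 at 10 and over, and 4 of 68 from 5 to 6.

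**Figure D3:**
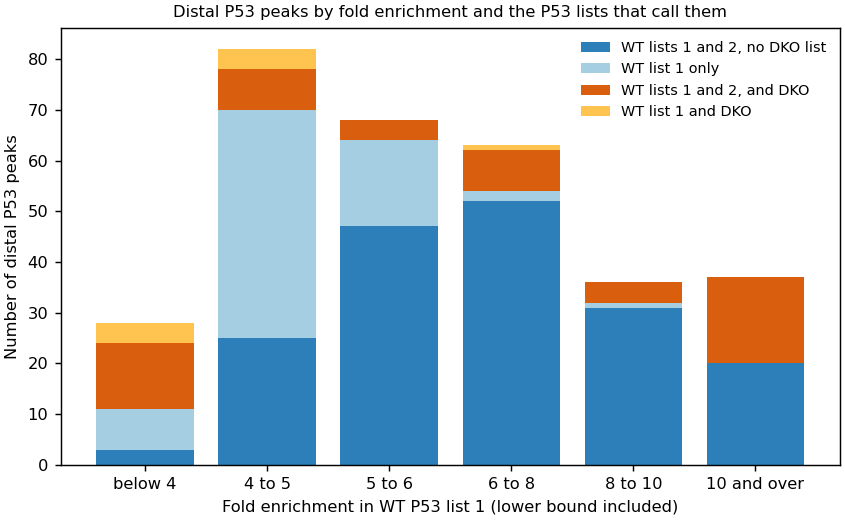
Number of distal P53 peaks in 6 classes of fold enrichment in WT list 1, stacked by the P53 lists that call them. Peaks of WT list 1 only (pale blue) sit mostly from 4 to 5, where they are 45 of 82, and no such peak is left at 10 and over.

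The strongest peaks not in DKO had nearest genes of varied function. They are the 12 highest in WT list 1 that WT list 2 repeated. Rps6ka1, a kinase of the Ras and MAPK pathway, had a peak on chromosome 4 from 133900168 to 133900620, 12371 bases outside the gene, with a pileup of 195 fragments and a fold enrichment of 22.6 in list 1 and 20.7 in list 2. Cemip2, a cell surface hyaluronidase, had one inside the gene with 15.0 and 14.2. Sos2, a guanine nucleotide exchange factor for Ras, had one inside on chromosome 12 from 69595245 to 69595781, 11484 bases from an end, with 12.2 and 10.8. None of these 3 overlapped a WDR5 or H3K4me3 peak.

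A peak on chromosome 4 from 135300867 to 135301449 lay 19035 bases from Srrm1, a splicing coactivator gene, at 11.3 in list 1 and 11.1 in list 2. One on chromosome 14 from 56834550 to 56835116 lay 19499 bases from the zinc finger gene Zmym5, at 12.7 and 12. A peak inside Mtmr10 and peaks 7988 bases from Lemd1, 47278 from AU018091, 7056 from Nrg1 and 9136 from Zfp945 ranged from 11.4 to 14.5 in list 1 and from 10.6 to 13.5 in list 2. Nrg1 encodes a ligand of ErbB receptors.

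The highest of the 12 went against the others. It lay inside Chl1, a cell adhesion gene of the L1 family, on chromosome 6 from 103649076 to 103649292, at 38.5 and 34.5 in the P53 lists. It was called in 7 of the other 10 lists, with 42.5 and 38.2 in the WT WDR5 lists, 43.7 and 39.1 in the DKO WDR5 lists, and 33.6 and 34.4 for H3K4me3 in WT and DKO. It was missing from both DKO P53 lists and from KO H3K4me3. The DKO cells lack Wdr5, so the values in the DKO WDR5 lists cannot be read as WDR5 binding. Values were similar across antibodies where the peak was called, and whether those of P53 at Chl1 reflect P53 binding was not tested. Without the Chl1 peak, the 251 peaks not in DKO reached at most 22.6.

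Of the 63 peaks called in DKO, 40 had a fold enrichment in DKO list 2 of 0.8 to 1.2 times that in WT list 1. Over the 63, the ratio of DKO list 2 to WT list 1 had a median of 0.995 and ranged from 0.293 to 1.63, and 30 were higher in DKO. The highest was on chromosome 9 from 35305241 to 35305574, 29284 bases from Rpusd4, at 26.3 in both WT lists and 27.3 and 27.4 in DKO. A peak on chromosome 2 from 98666558 to 98667329, 1034886 bases from the nearest gene Lrrc4c, had a pileup of 8488 fragments, against a median of 24 for peaks not in DKO. Its fold enrichment was 21.2 and 18.2 in WT and 24.2 and 22.8 in DKO. Peaks near Gm2244 on chromosome 14 (20.6 in WT list 1, 17.7 in DKO list 2) and near Ly6c2 on chromosome 15 (16.7 and 17.0) were likewise in all 11 lists.

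Only 5 of the 63 peaks called in DKO overlapped no WDR5 or H3K4me3 peak of any list, and in all 5 the fold enrichment was lower in DKO. The class was set apart after the values were seen. Inside Ncoa1, a nuclear receptor coactivator gene, the values were 12.6 and 11.7 in WT and 7.12 and 6.42 in DKO. Inside Cd302, which encodes a C-type lectin receptor, they were 15.0 and 14.6 in WT and 4.41 in DKO list 2, with no call in DKO list 1. The 3 others were also called in DKO list 2 alone. They lay inside Gm29721 (16.3 in WT list 1, 6.18 in DKO), 76709 bases from Sall1, a zinc finger gene of development and stem cells (10.5 and 3.44), and 19515 bases from Ythdc1, a reader of methylated RNA (7.89 and 5.29). The ratio to WT list 1 was from 0.293 to 0.671 in these 5, and no test was made, since each value comes from 1 library. Of the 58 other peaks, 28 were below 1 and 2 fell within the range of the 5, with 0.429 as the lowest.

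**Figure D4:**
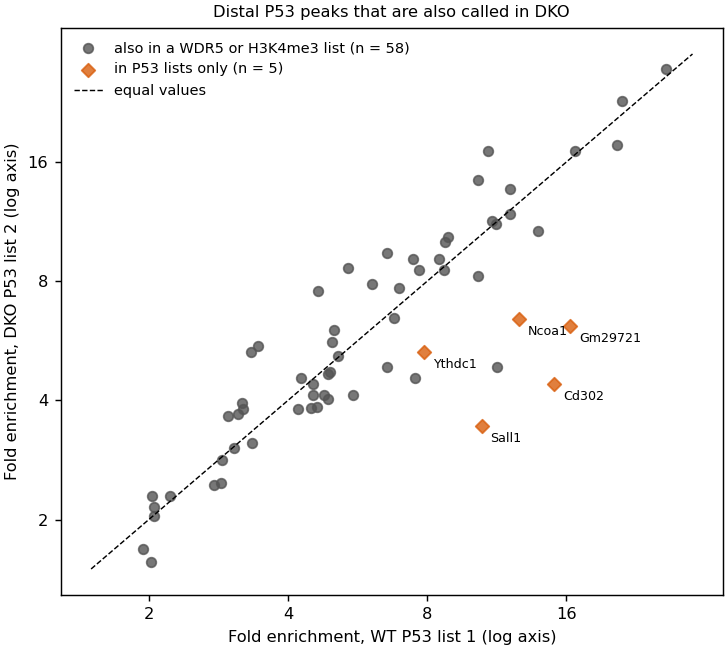
Fold enrichment in DKO P53 list 2 against WT P53 list 1 (log axes) for the 63 distal peaks called in DKO, each point a peak and the dashed line equal values. The 58 peaks also called for WDR5 or H3K4me3 (grey) lie on both sides of the line, 28 of them below it and 2 at ratios no higher than the highest of the orange points, and the 5 peaks in P53 lists only (orange) lie below it, at ratios from 0.293 to 0.671.

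Peaks called in DKO also lay close together. With peaks within 10 kb of each other joined, 40 of the 314 fell into 13 clusters, and 35 of the 40 were called in DKO, against 28 of the 274 outside clusters. All members were called in DKO in 9 clusters. The largest held 11 peaks in 38180 bases at the start of the assembled part of chromosome 9, from 3000017 to 3038196, with Alkbh8 as the nearest gene. Fold enrichment there ran from 2.87 to 12.1 in WT list 1, all 11 were called in both WT and both DKO lists, and 10 overlapped WT H3K4me3. One cluster had no member in DKO, a pair on chromosome 15 between 83193408 and 83202350 near Cyb5r3 and A4galt, at 9.56 each in list 1 and 8.78 and 9.06 in list 2.

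By chromosome, 12 of the 27 distal peaks of chromosome 9 and all 4 of chromosome Y were called in DKO, and none of the 29 of chromosome 1, the 15 of chromosome 6, the 16 of chromosome 7, the 11 of chromosome 18 or the 12 of chromosome 19. No list of regions of unusual read depth was applied to these calls.

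Inside protein-coding gene spans lay 94 of the 314 distal peaks (29.9%, 25.1 to 35.2), against 32.8% of all 396, and 220 lay outside. The share called in DKO was 20 of 94 (21.3%) inside and 43 of 220 (19.5%) outside, an odds ratio of 1.11 (0.613 to 2.02, two-sided Fisher's exact test, adjusted p = 0.759). That ratio fell below 1 without DKO list 2 (0.820), with a distance of 10000 bases (0.667) and in the top 50% of each list (0.680), so no direction can be read. Median fold enrichment was 5.03 inside and 5.81 outside. Whether a peak inside lies in an exon or intron was not analysed here. A noncoding gene span overlapped 48 of the 314 peaks (15.3%, 11.7 to 19.7), against 14.1% of all 396.

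The 94 peaks inside fell in 110 gene spans, since some spans overlap. Sfi1, a centrosome gene on chromosome 11, held 7 peaks, with a fold enrichment from 1.94 to 2.22, the lowest of all distal peaks. Of these 7, 6 were called in DKO and 6 overlapped WT H3K4me3. Ncoa1, Gm42346, Zfp992 and Farp2 held 2 each. In Ncoa1 the second peak, 3.58 and 3.65 in the WT lists, had no call in DKO. Both Farp2 peaks, 4.95 and 3.77, were in WT list 1 only.

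The distance from a distal peak to the nearest gene end had a median of 34848 bases and reached 1349893 bases, at a peak on chromosome 3 whose nearest gene was Pcdh10. It was up to 10 kb for 50 of the 314 peaks, from 10 to 50 kb for 136, from 50 to 100 kb for 37 and beyond 100 kb for 91. Just beyond the threshold were peaks 5186 bases from Ect2 (4.67 in list 1), 5315 bases from Peli3 (7.28) and 5388 bases from Bptf (6.56). Just short of it were peaks 4921 bases from an end of Raet1e (4.28), and 4930 bases from Gm5174 (6.29) and from Mrps31 (6.85). The nearest gene carried a WT H3K4me3 peak within 1 kb of an end for 108 of the 251 peaks not in DKO (43.0%, 37.1 to 49.2), against 35.5% of all 21887 protein-coding genes. The nearest gene was so marked for 22 of the 63 peaks called in DKO (34.9%) and 39 of the 82 near-gene peaks (47.6%). These differences were not tested.

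The spans of 592 protein-coding genes (2.7% of 21887) lay within 100 kb of a distal peak not in DKO. Of 46 matched genes on a list of p53 targets and feedback regulators, which leaves out Mdm4, 1 did, a share near that of all genes. It was Btg2, an antiproliferative gene. Its peak, on chromosome 1 from 134100727 to 134101383, lay 21572 bases from Btg2 and 9859 from Chit1, with 5.86 in list 1 and 6.06 in list 2. Of the pluripotency genes 1 of 30 did, Sall4 (77870 bases, 6.07 and 5.57), of the anterior neural and eye field genes 1 of 33, Gbx2 (12392 bases, 4.08 in list 1 only), and of the genes of other embryoid body cell types 1 of 21, Thy1 (55536 bases, 4.53 in list 1 only). Of 69 synapse and axon guidance genes 3 did, Nrg1, Chl1 and Csmd3, the last with 5.03 in list 1 only. The Chl1 peak is the one that WDR5 and H3K4me3 lists also called. These counts are small, and the lists were chosen with earlier results of these data known.

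Further genes tied to P53 were picked after their values were seen, and support nothing. Mir34a, the gene of miR-34a, a microRNA that P53 is known to activate, lay 19006 bases from a distal peak. Its mature strand is shown to identify it, with the seed (bases 2 to 8) in capitals.

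miR-34a-5p: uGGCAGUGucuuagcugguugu

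That peak, on chromosome 4 from 150048907 to 150049448, lay inside the span of the lncRNA gene Gm13067, from 150029405 to 150058717, and 38055 bases from the nearest protein-coding gene, Gpr157. It had 5.06 in WT list 1 and 4.85 in list 2, and no call in DKO. It was 1 of the 13 peaks not in DKO that overlapped WT H3K4me3, at 4.42, and had no H3K4me3 call in KO or DKO. Of the 13, Cacna1c was the other one with H3K4me3 called in WT alone. The H3K4me3 lists of KO and DKO held 918 and 6418 peaks, against 9836 in WT. How many of all WT H3K4me3 peaks lack a call in both was not counted, so nothing particular to these peaks is read from it.

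Mdm4, which encodes an inhibitor of P53, held a peak inside its span, on chromosome 1 from 133020357 to 133020616 and 9971 bases from an end, at 4.72 and 4.73. Ier5, a stress response gene, had the peak with the site shown above, on chromosome 1 from 155056130 to 155056751, at 5.34 and 5.29. That peak lay over the lncRNA genes Gm41980 and Gm51651 and 41146 bases from H3K4me3. These 2 and the Btg2 peak were called in no list other than WT P53. Peaks not in DKO had a median of 5.67 in list 1 and a first quartile of 4.78, above the Mdm4 peak. For those in both WT lists, as these are, the median was 6.29 and the first quartile 5.38. The Mdm4 and Ier5 peaks lay below that quartile, and the Btg2 peak between it and the median.

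**Figure D5:**
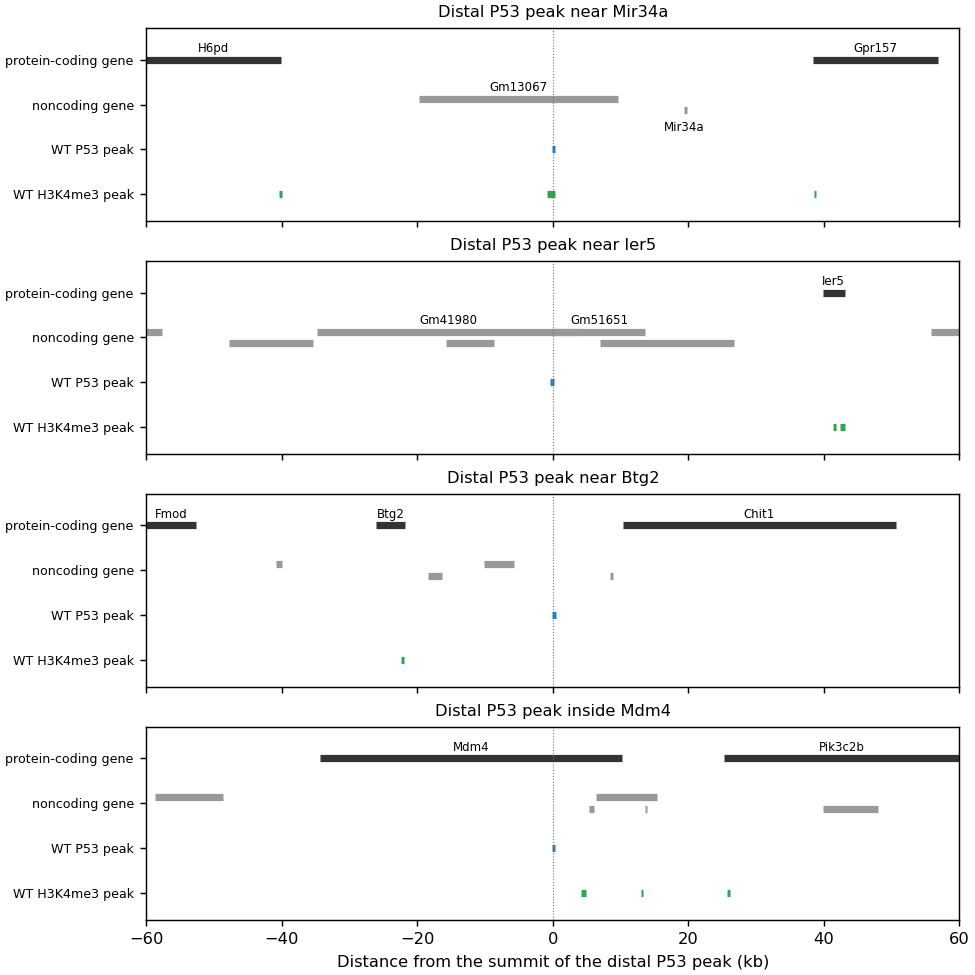
Maps of 60 kb to each side of the summits of 4 distal P53 peaks, near Mir34a, Ier5 and Btg2 and inside Mdm4, with protein-coding and noncoding gene spans and WT P53 and WT H3K4me3 peaks by distance from the summit (kb). H3K4me3 overlaps the P53 peak near Mir34a and lies 41146 bases from the one near Ier5, 22006 from the one near Btg2 and 3979 from the one inside Mdm4.

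Other neighbours picked in the same way were Nfe2l2, the oxidative stress factor NRF2 (63281 bases, 9.92 and 10.2), Ctnnb1, which encodes beta-catenin (13932 bases, 5.83 and 5.62), and Smad4, a mediator of TGF-beta signals (20559 bases, 6.66 and 6.08). None of these 3 peaks was called in DKO or overlapped WT H3K4me3. No expression was measured in these files, so whether any neighbour responds to P53 was not tested.

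Of the 13 peaks not in DKO that overlapped WT H3K4me3, 5 lay inside a gene span (Chl1, Cpa6, Thsd7b, Cacna1c and Sfi1), 2 outside but within 100 kb of one, and 6 beyond. After Chl1, the highest was on chromosome 15 from 63032476 to 63032802, 743169 bases from Gsdmc, at 10.3 and 9.88 for P53 and 4.17 for H3K4me3 in WT. Next were peaks 262989 bases from Stmn2 (8.32 in list 1 only), 1349893 bases from Pcdh10 (5.79 and 6.04) and 809983 bases from Otol1 (5.53 and 5.76). A KO H3K4me3 peak overlapped 12 of the 251 peaks not in DKO, and a DKO one 6. Among the 63 peaks called in DKO these were 45 and 52. A KO list with 918 peaks in all thus held 57 of the 314 distal P53 peaks (18.2%), against 66 for the WT list with 9836. The share in KO was much the same for near-gene peaks, 15 of 82 (18.3%), with 22 of 82 in the WT list.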

How the data were processed

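Per the file headers, the authors made each of the 11 peak lists from paired-end alignments with MACS (version 2.1.2 or 2.1.0.20150731), with no control sample and a q-value limit of 0.01. Bowtie2, SAMtools 1.5, bedtools, HOMER 4.10 and the build mm10 are named in the submitters' processing notes. Pileup is the coverage signal at the summit, the −log10 p and −log10 q values are the caller's, and fold enrichment is a ratio to local background, all per the file headers and as deposited. None is scaled between libraries, and no spike-in is given.

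Here 35 peaks outside chromosomes 1 to 19, X and Y were left out. Gene spans, starts and sequences came from RefSeq tables of GRCm38.p6, which give no exons. The planned comparisons were kept. A planned motif search around peak summits needed a genome sequence, which was not at hand, so RefSeq start windows were searched instead. Peaks were shared where they overlapped by at least 1 base. Shares have Wilson 95% intervals. The 4 comparisons of peak classes used a two-sided Fisher's exact test with Benjamini-Hochberg adjustment (scipy 1.17.1, Python 3.11.15), and the code was checked on simulated data. The P53 and WDR5 lists are labelled rep1 and rep2 but were not shown to be separate libraries. Each group and antibody was therefore counted as 1 library (n = 1), and no test compares genotypes. The 2 DKO P53 lists were read as either-list calls.

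Peaks were named by rule: the 12 highest in both WT lists and not in DKO, the 6 highest in DKO, the 8 highest with H3K4me3, 3 on each side of the distance threshold, those near listed p53 targets, clusters within 10 kb and shared host genes. One peak that the rule names is not reported here. Others are said to be picked after their values were seen. The members and lists were chosen with earlier results of these data known. Alternatives covered distance, overlap, peak thresholds and each list left out.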

Additional observations from a re-analysis of the deposited data

How the results depend on the processing

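Of 96 values recomputed under 11 alternatives for the 9 results, 87 were counted as kept. Odds ratios had to keep their direction and their side of the threshold, and shares to stay within their interval. The number of distal peaks has no interval, and from 232 to 321 it was counted as kept, against 314 as reported. With the upper 50% of every list, ranked by fold enrichment, 156 peaks were distal and 23.1% of them lay inside genes. There, the odds ratio of H3K4me3 overlap in distal against near-gene peaks was 1.31, and that of a DKO call inside against outside genes was 0.680. The latter was 0.667 with a distance of 10000 bases. With a −log10 q of at least 5, list 2 repeated 80.3% of the distal peaks. With each list left out in turn, the share called in DKO ran from 15.6% (without DKO P53 list 2) to 23.1% (without WT list 1). The odds ratio of H3K4me3 overlap in distal against near-gene peaks ran from 0.726 to 1.21 (without WT list 1), and that of a DKO call inside against outside genes from 0.820 (without DKO P53 list 2) to 1.11. None of these odds ratios passed the threshold in any alternative. The odds ratio of H3K4me3 overlap in peaks called in DKO against those not in DKO passed it in all 11 alternatives. It ranged from 66.3 (overlap of at least 50% of the shorter peak) to 347 (upper 50% of every list). Leaving out WT list 2 or DKO P53 list 1 could not change it, or any other value recomputed there. As reported, WT list 2 enters only the share it repeats, and DKO list 2 held every DKO call. Those unchanged values are among the 87. The use of list 2 repeats alone was chosen after the data were seen. No paired analysis was possible because no result comes from a test between samples, and lists 1 and 2 of a group were not shown to be separate libraries. Calls without a control library depend on depth, so a peak missing from a list was not detected at that depth.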

Other observations

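Of the 48 distal P53 peaks that overlapped a noncoding gene span, 32 lay over a lncRNA gene, 25 of the 251 peaks not in DKO (9.96%) and 7 of the 63 called in DKO (11.1%). A microRNA gene lay within 100 kb of 22 distal peaks, 21 of them not in DKO, and these were 28 of 1005 microRNA genes in the RefSeq table (2.79%), close to the 2.7% of protein-coding genes near a distal peak not in DKO. Values were chosen from these after they were seen. Mir135b lay 67186 bases from the peak near Lemd1 (13.0 and 12.1 in the WT lists), Mir6363 26400 bases from a peak with 8.12 and 8.17, and Mir3067 1588 bases from one with 5.34 and 5.19. None of these 3 peaks was called in DKO or overlapped WT H3K4me3. No test was made, and microRNA levels were not measured in these files.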
